A study of Mus musculus with 27 samples.

Results

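Long-term loss of Setdb1 was compared here with its acute loss. The 3 libraries labelled long-term KO were set against the 3 libraries labelled 4OHT day 5, and these 6 libraries, chosen by their labels alone, are part of the 27 RNA-seq libraries of the series. All of them were made from total RNA of immortalized mouse embryonic fibroblasts (iMEFs) whose *Setdb1* gene is deleted on treatment with 4-hydroxytamoxifen (4OHT), here called *Setdb1* cKO iMEFs. 4OHT was given for 4 days. The acute libraries were harvested at day 5, and the long-term libraries are labelled as taken more than 2 weeks after the treatment, where the study's text names a shorter minimum. In addition, 3 libraries of untreated *Setdb1* cKO iMEFs of the same experiment give the starting level beside each value. Per the study's methods, the cells used came from a single recloned line, so all groups stand for 1 clone. Per the labels, they were passaged at short intervals in one medium. Time since the deletion and time in culture therefore cannot be told apart. The labels do not say whether the 3 libraries of a group came from separate cultures, so the p-values measure the spread between these libraries only.

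Setdb1 is a methyltransferase that places the repressive mark H3K9me3 on endogenous retroviruses (ERVs), the genomic remains of retroviral insertions. VL30 elements are ERVs of the mouse with long terminal repeats whose U3 part defines their classes. Cells sense viral nucleic acids through receptors such as Ifih1 and Ddx58, secrete interferon (IFN), and answer it through factors such as Stat2 and Irf9, which bind IFN-stimulated response elements in front of antiviral genes. Fibroblasts are the main builders of the collagen matrix, and in these cells growth factors act through the MAPK cascade of MEK and ERK.

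*Setdb1* itself, at 95127447 to 95161124 of chromosome 3 in the mm9 build, was looked at first. Its FPKM, the count of fragments scaled by transcript length and library depth, was 4.16, 4.20 and 6.52 in the libraries labelled 4OHT day 5, 7.24, 7.32 and 6.96 in those labelled long-term KO and 5.95, 5.53 and 5.16 in the untreated libraries. The libraries labelled long-term KO were thus the highest of the 3 groups, so RNA over the whole gene did not follow their label. They differed by a log2 fold change of 0.56 ± 0.16 from 4OHT day 5 (SE, limma, adjusted p = 0.0162). Without the first or the second library of day 5 it was 0.45 (limma, adjusted p = 0.0547 and 0.0554). The deletion removes only some exons, which a value over the whole gene cannot show, so it does not check the labels, and in what follows long-term KO and 4OHT day 5 stand for the libraries so labelled.

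Depth was alike in the groups, with 37.3 to 39.1 M fragments at 4OHT day 5 and 38.5 to 40.4 M fragments in long-term KO, computed from the deposited confidence intervals. Some technical measures differed. Median-ratio size factors were 0.987 to 1.011 at 4OHT day 5 and 1.021 to 1.032 in long-term KO. The highest locus, of 2840 bases, had 185160 to 217514 FPKM at day 5 and 143094 and 152258 FPKM in the first 2 long-term libraries. In the third, the highest was a locus of 99 bases at 1.19e+07 FPKM. Between 1306 and 1435 assembled loci shorter than 300 bases were above 0 FPKM in a library labelled 4OHT day 5, and between 622 and 639 in a library labelled long-term KO. Among genes with a locus under 2 kb, 12.1% were called lower and 3.27% higher in long-term KO, and the part of these measures in the results was not tested. The cells had the RNA of fibroblasts: the summed FPKM of 12 fibroblast markers was 1909 to 2027 at 4OHT day 5 and 2364 to 2511 in the long-term libraries, led by *Vim*, *Sparc*, *Col1a2* and *Col3a1*. Markers of other cell types were low or absent. The summed level of 10 haematopoietic markers was 1.06 to 1.49 FPKM at 4OHT day 5 and 1.84 to 2.99 in the long-term libraries, with *Spi1*, *Cd3e* and *Tyrobp* listed at 0 in every library. Epithelial markers (9 with a value) summed to 9.31 to 11.0 and 6.88 to 7.53 FPKM, with *Krt5* and *Esrp1* at 0 throughout. Endothelial (7), skeletal muscle (8) and embryonic stem cell markers (7) summed to at most 2.02 FPKM in every library of both groups. Markers of fat, cartilage and bone (12) summed to 6.53 to 7.35 and 6.31 to 6.73 FPKM, and neural markers (8) to 40.98 to 42.98 and 23.6 to 25.3 FPKM, for the most part *Nes*.

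For each gene, limma was fitted to log2(FPKM + 0.1) of all 9 total RNA libraries, and a gene was called when its adjusted p was under 0.05 and its fold change at least 2. On this scale the change of low genes is understated. P-values were adjusted by the Benjamini-Hochberg method, a value after ± is a standard error of the fit, and a value that follows a gene in parentheses is its log2 fold change between long-term KO and 4OHT day 5 unless said otherwise. Of 8642 genes tested, 577 (6.68%) were called higher and 526 (6.09%) lower in long-term KO than at 4OHT day 5. In total RNA of a culture, fewer cells of a kind and less RNA per cell cannot be told apart. The median log2 fold change of all genes was 0.04. In the same fit, 174 genes (2.01%) were called higher and 113 (1.31%) lower at 4OHT day 5 than in untreated cells, and 667 (7.72%) higher and 551 (6.38%) lower in long-term KO than in untreated cells. These 3 comparisons share libraries, and their counts are set side by side only. Without the fold limit, 3115 genes were higher and 2651 lower in long-term KO at an adjusted p under 0.05.

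Leaving aside genes listed at 0 in any library, 536 genes (6.47% of 8281) were called higher and 487 (5.88%) lower. Of these 1023 genes, 1018 had groups that did not overlap, where 39.4% of all genes tested were higher and 34% lower without overlap. A change of at least 4-fold was found for 106 genes in either direction. A change of at least 8-fold was found for 41 higher and 28 lower genes, and of at least 16-fold for 15 and 10. The plot of every gene tested shows where the lists described next lie among all genes.

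**Figure D1:**
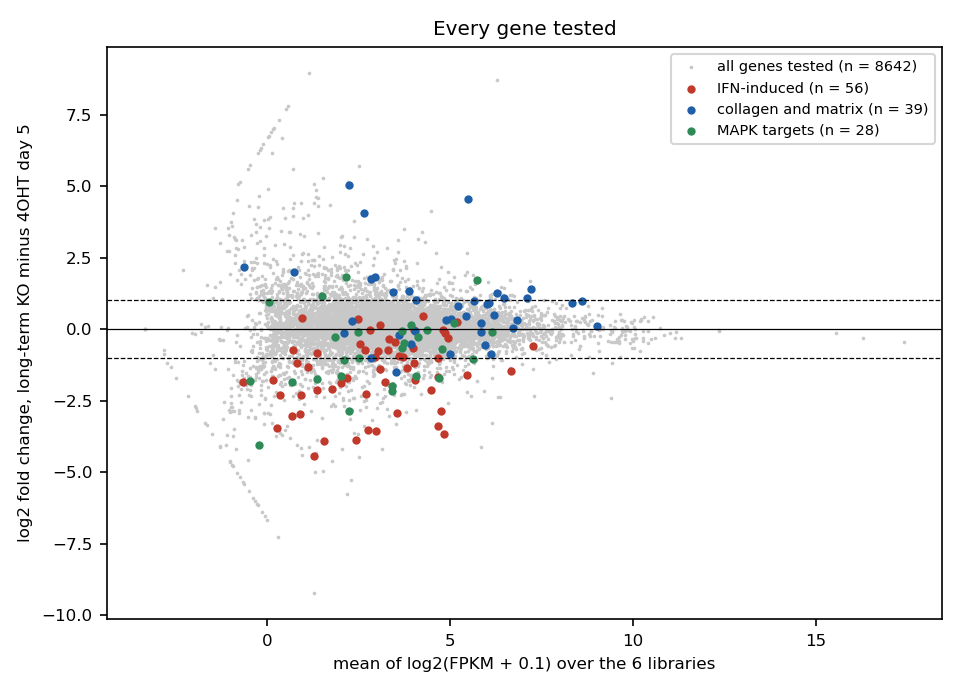
Each grey point is 1 of 8642 genes, with its mean log2(FPKM + 0.1) over the 6 libraries on the horizontal axis and its log2 fold change, long-term KO minus 4OHT day 5, on the vertical axis. Dashed lines mark a 2-fold change, and the IFN-induced genes (56, red) lie mostly below 0, the collagen and matrix genes (39, blue) mostly above 0, and the MAPK targets (28, green) mostly below 0. The slanted rows of grey points far from 0 are genes listed at 0 in a whole group.

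Genes were grouped in lists of known function, and each list was counted against the 6.68% and 6.09% of all genes. Genes of the IFN answer, of the MAPK cascade, of inflammation, of the p53 pathway and of the Atf4 stress pathway had a larger share called lower than all genes. Genes of the matrix, of contraction and TGF-β, and of cholesterol synthesis had a larger share called higher. Cell cycle genes hardly moved: of 46 tested, 0 were called in either direction, with a median log2 fold change of 0.15, and at an adjusted p under 0.05 without a fold limit 23 were higher and 7 lower.

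**Figure D2:**
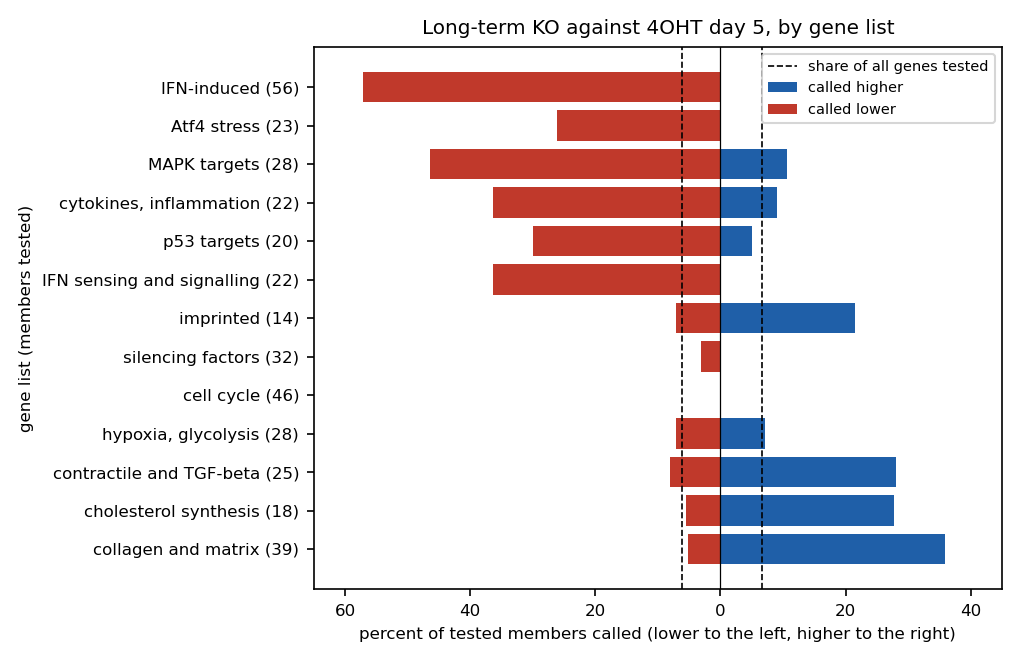
Bars give the percent of tested members called lower (red, to the left) or higher (blue, to the right) in long-term KO against 4OHT day 5, for each list of functions with 10 or more members tested (cell type markers are not drawn), ordered by its median log2 fold change. Dashed lines mark the 6.09% and 6.68% of all genes, and the IFN-induced list (56 members tested, 32 lower, 0 higher) and the collagen and matrix list (39 tested, 14 higher, 2 lower) are the first and the last of those drawn.

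The IFN answer had faded in the long-term libraries, yet most of its genes were still above the untreated level. Of 99 genes of the IFN-induced list, 63 had a locus of their own in every library, 30 were joined with a neighbour in at least one library and were not tested, 7 were too low, and 56 were tested. Of these, 32 were called lower in long-term KO than at 4OHT day 5 and 0 higher, with a median log2 fold change of -1.38. Of the 56 genes, 46 were called higher and 0 lower at 4OHT day 5 than in untreated cells (median 2.44), and 30 were called higher and 1 lower in long-term KO than in untreated cells (median 1.17). To be tested, a gene needed at least 1 FPKM in at least 3 libraries. Some, such as *Zbp1* and *Rsad2*, reached this only at 4OHT day 5, so the direction of their change from or to day 5 was set by the filter. Without any 1 library of day 5, 49 genes of the list were tested and 25 or 26 called lower. No haematopoietic marker that defines an immune cell was at a level that could be tested, apart from *Coro1a*.

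The largest fall of the list was in *Zbp1*, a sensor of nucleic acids that triggers cell death. Its FPKM was 11.1, 12.02 and 10.9 at 4OHT day 5, 0.335, 0.631 and 0.374 in the long-term libraries and 0.196, 0.362 and 0.133 in untreated cells. The long-term libraries were far under those of day 5 and overlapped the highest untreated library. The log2 fold change was -4.43 ± 0.28 (adjusted p = 3.89e-06). *Rsad2*, or viperin, which blocks viral replication, had 11.4, 11.0 and 11.2 FPKM at 4OHT day 5 against 0.615, 0.825 and 0.557 FPKM in long-term KO and 0.151, 0.113 and 0.201 FPKM in untreated cells. The 3 groups did not overlap, and *Rsad2* fell by 3.90 ± 0.16 on the log2 scale (adjusted p = 4.41e-07). *Oasl1*, a member of the oligoadenylate synthetase family, went from 21.0, 21.3 and 20.4 FPKM to 1.36, 1.22 and 1.37 FPKM (log2 fold change -3.89 ± 0.18, adjusted p = 7.77e-07).

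The secreted and the most abundant antiviral products fell as well. *Cxcl10*, a chemokine that draws T cells, had 101, 107 and 100.3 FPKM at 4OHT day 5 and 7.93, 8.29 and 7.72 FPKM in long-term KO, with 3.09, 3.87 and 3.34 FPKM in untreated cells. Every long-term library was thus above every untreated one and more than 10-fold under every library of day 5, and the log2 fold change was -3.67 ± 0.08 (adjusted p = 1.88e-08). *Ifit1*, which binds foreign RNA, had 83.1, 85.9 and 79.6 FPKM at 4OHT day 5 and 7.96, 8.02 and 7.55 FPKM in long-term KO (log2 fold change -3.38, adjusted p = 5.83e-08). *Isg15*, a ubiquitin-like protein that is joined to other proteins, had 94.6, 63.7 and 63.4 FPKM and 11.99, 9.49 and 8.62 FPKM (log2 fold change -2.86, adjusted p = 5.04e-06). The first library of 4OHT day 5 was the highest for *Isg15*, and the groups stayed apart without it. *Ccl5*, another chemokine, and *Xaf1*, which promotes apoptosis, fell by 3.55 and 3.53 on the log2 scale. *Xaf1*, at 1.998, 1.85 and 1.87 FPKM in long-term KO, ended just under the untreated libraries at 2.31, 2.05 and 2.03 FPKM.

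Sequences in front of 4 of these genes are shown because their RNA fell the most among the IFN-induced genes with the letters GAAA NN GAAA (N is any base), a core of the IFN-stimulated response element, in the promoter. The promoters are those of RefSeq on GRCm38.p6, a later build than the mm9 of the data, and run from 250 bases before to 50 bases after the start of the gene, written 5′ to 3′ on the strand of the gene. Capitals mark GAAA NN GAAA or, where it lies on the other strand, TTTC NN TTTC, and overlapping matches run together. *Rsad2* lies at chr12:26456403-26456702 on the minus strand, *Cxcl10* at chr5:92348840-92349139 on the minus strand, *Ifit1* at chr19:34640639-34640938 on the plus strand and *Isg15* at chr4:156200769-156201068 on the minus strand.
Rsad2: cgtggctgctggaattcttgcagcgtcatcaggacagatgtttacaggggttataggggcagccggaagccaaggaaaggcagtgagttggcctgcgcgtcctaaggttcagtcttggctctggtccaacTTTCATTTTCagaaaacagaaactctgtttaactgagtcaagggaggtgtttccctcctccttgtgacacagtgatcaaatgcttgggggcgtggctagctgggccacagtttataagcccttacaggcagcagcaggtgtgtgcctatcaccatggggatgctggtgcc
Cxcl10: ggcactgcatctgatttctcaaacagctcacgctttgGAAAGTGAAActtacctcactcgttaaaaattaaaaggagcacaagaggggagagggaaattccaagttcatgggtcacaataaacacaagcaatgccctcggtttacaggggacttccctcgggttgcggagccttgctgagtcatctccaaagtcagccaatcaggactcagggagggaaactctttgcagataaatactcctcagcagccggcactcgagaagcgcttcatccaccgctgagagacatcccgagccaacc
Ifit1: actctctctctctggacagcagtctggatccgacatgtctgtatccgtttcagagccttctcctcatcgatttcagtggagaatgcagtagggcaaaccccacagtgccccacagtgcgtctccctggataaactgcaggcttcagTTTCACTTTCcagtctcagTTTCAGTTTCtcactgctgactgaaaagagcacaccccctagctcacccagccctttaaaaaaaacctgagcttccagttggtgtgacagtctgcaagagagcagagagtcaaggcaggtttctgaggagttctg
Isg15: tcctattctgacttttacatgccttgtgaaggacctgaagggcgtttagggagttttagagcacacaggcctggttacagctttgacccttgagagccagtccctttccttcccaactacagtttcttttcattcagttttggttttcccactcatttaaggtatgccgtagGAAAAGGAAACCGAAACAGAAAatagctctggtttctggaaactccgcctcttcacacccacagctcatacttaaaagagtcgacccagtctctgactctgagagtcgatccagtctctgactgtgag

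*Rsad2* and *Cxcl10* have 1 match, *Ifit1* has 2 and *Isg15* has 3. The letters were found in 1131 of all 32851 promoters of the RefSeq table (3.44%). Of the 56 IFN-induced genes tested, 41 had a promoter in the table, and 15 of these held a match (36.6%). A gene was counted when any of its promoters held a match, whereas the 3.44% is a share of single promoters, so the 2 shares are unlike measures. A match was present for 12 of the 21 genes called lower (57.1%) and for 3 of the 20 genes not called (15%). A match is a string of letters and does not show that a factor is bound there.

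**Figure D3:**
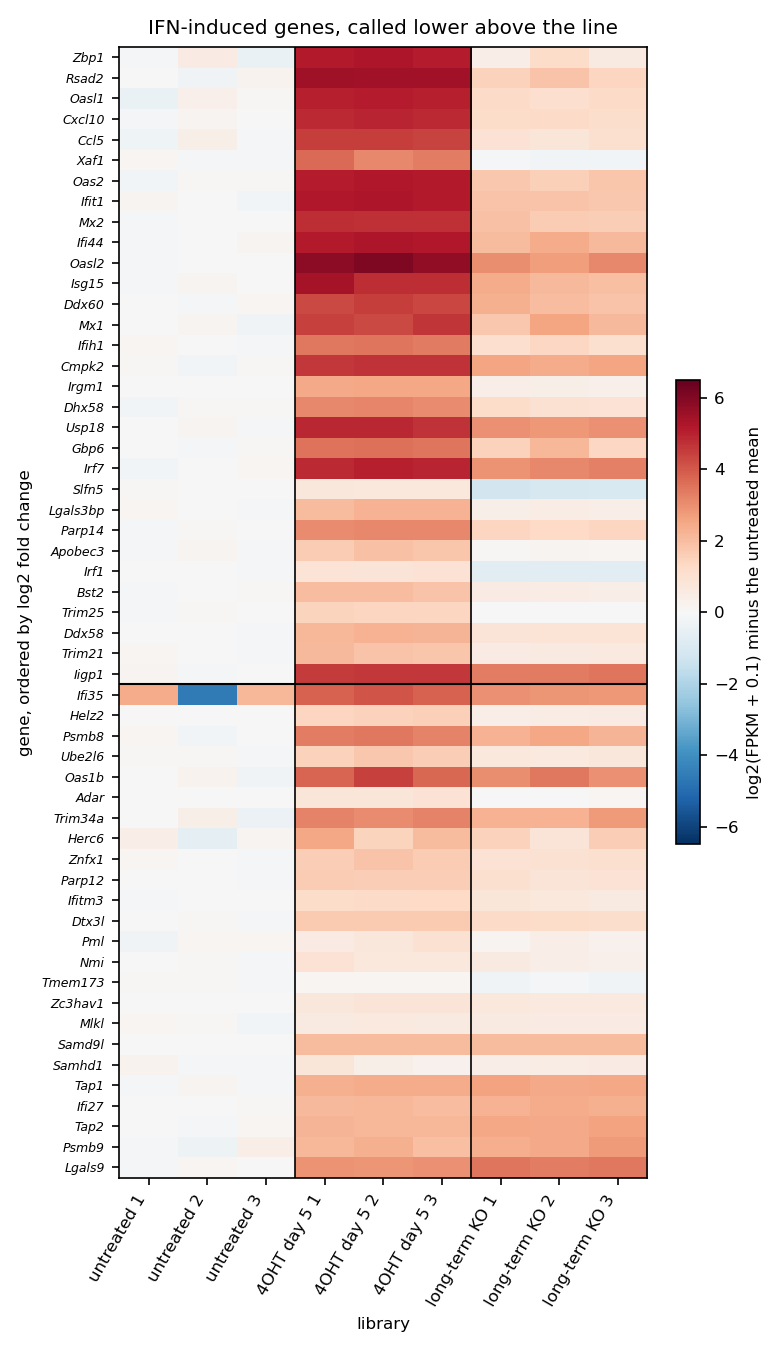
Rows are 55 of the 56 IFN-induced genes tested, ordered by log2 fold change between long-term KO and 4OHT day 5, and columns are the 9 libraries. Colour gives log2(FPKM + 0.1) minus the mean of the untreated libraries, and the horizontal line parts the genes called lower from the others (for *Ifi35* the second untreated library is listed at 0). At the lower end *Lgals9*, *Psmb9*, *Tap2*, *Ifi27* and *Tap1* are as red in long-term KO as at 4OHT day 5.

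Transcription factors and regulators of the pathway were among the genes that fell. *Irf7*, the factor that amplifies the production of type I IFN, had 16.3, 19.2 and 17.7 FPKM at 4OHT day 5, 4.28, 4.89 and 5.44 FPKM in long-term KO and 0.411, 0.486 and 0.530 FPKM in untreated cells. The 3 groups did not overlap, and the long-term libraries lay in between, at a log2 fold change of -1.85 ± 0.11 to day 5 (adjusted p = 3.3e-06). *Usp18*, which removes Isg15 from proteins and dampens the IFN receptor, behaved alike, with 8.28, 8.07 and 7.05 FPKM at 4OHT day 5, 2.08, 1.86 and 2.09 FPKM in long-term KO and 0.171, 0.216 and 0.152 FPKM in untreated cells (log2 fold change -1.90 ± 0.11, adjusted p = 2.13e-06). *Irf9* was assembled into one locus with its neighbour *Rnf31*, and the joined locus, which was not tested, had 30.1, 30.9 and 29.8 FPKM at 4OHT day 5, 14.5, 14.7 and 16.5 FPKM in long-term KO and 8.40, 6.08 and 5.83 FPKM in untreated cells.

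*Irf1*, a factor that IFN-γ induces, and *Slfn5*, a Schlafen gene, ended under their untreated level. *Irf1* had 77.4, 75.1 and 79.1 FPKM at 4OHT day 5, 25.1, 24.8 and 25.7 FPKM in long-term KO and 43.2, 42.3 and 40.2 FPKM in untreated cells. The long-term libraries were the lowest of the 3 groups, and *Irf1* fell by 1.61 ± 0.04 on the log2 scale from day 5 (adjusted p = 2.56e-08). *Slfn5* went from 2.04, 1.95 and 1.94 FPKM to 0.459, 0.514 and 0.530 FPKM (log2 fold change -1.79), with 1.24, 1.14 and 1.13 FPKM in untreated cells. Of 22 genes of IFN sensing and signalling tested, 8 were called lower and 0 higher in long-term KO, with a median log2 fold change of -0.27. The RNA sensors *Ifih1* (-2.26), *Dhx58* (-2.09) and *Ddx58* (-1.35) were among those that fell. The adaptor *Mavs* (-0.23), the receptor subunit *Ifngr1* (-0.19), and the kinases *Jak1* (0.26) and *Tyk2* (0.49) were not called.

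Some IFN-induced genes did not fade. Antigen presentation by MHC class I rests on peptides cut by the immunoproteasome, to which Psmb9 and Psmb8 belong, and carried by the transporter of Tap1 and Tap2. *Tap1* had 7.61, 8.09 and 8.23 FPKM at 4OHT day 5 and 9.47, 8.38 and 8.63 FPKM in long-term KO, against 1.32, 1.63 and 1.39 FPKM in untreated cells. Both knockout groups were far above the untreated libraries and close to each other, at a log2 fold change of 0.14 ± 0.08 (adjusted p = 0.165). *Tap2* had 4.90, 4.75 and 4.85 FPKM at day 5 and 6.21, 5.95 and 6.63 FPKM in long-term KO (log2 fold change 0.37, adjusted p = 0.00173, under 2-fold). *Psmb9* had 1.62, 1.81 and 1.36 FPKM and 1.89, 1.99 and 2.52 FPKM (log2 fold change 0.40, adjusted p = 0.141), whereas *Psmb8* had 18.3, 19.96 and 17.3 FPKM and 8.96, 10.7 and 8.67 FPKM (log2 fold change -0.97, adjusted p = 0.000103, just under 2-fold). *Lgals9*, a galectin, had 16.2, 15.7 and 16.5 FPKM at 4OHT day 5 and 23.3, 21.1 and 22.8 FPKM in long-term KO, with 1.84, 2.27 and 2.02 FPKM in untreated cells. Its long-term libraries were all above those of day 5, by a log2 fold change of 0.47 ± 0.07 (adjusted p = 0.000749). *Samd9l*, an antiviral factor, was nearly the same in both groups, at 7.02, 7.09 and 6.92 FPKM and 6.87, 6.95 and 6.89 FPKM (log2 fold change -0.02 ± 0.04), against 1.60, 1.64 and 1.55 FPKM in untreated cells.

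ERV RNA was measured from assembled loci without a gene that lay at least 50% inside an element of the study's list, as fragments scaled by element length and library depth (element FPKM). For VL30 U3 class I, with 71 elements, it was 15.35, 15.26 and 25.1 at 4OHT day 5, 3.495, 3.43 and 3.40 in the long-term libraries and 0.334, 0.295 and 0.272 in untreated cells. The long-term libraries were under every library of day 5 and about an order of magnitude above the untreated ones. The log2 fold change was -2.36 ± 0.18 (adjusted p = 1.26e-05), and the exact permutation test (two-sided) gave p = 0.1, the smallest that 3 libraries against 3 allow. This value depends on how loci are counted. At 4OHT day 5, 92.6 to 94.9% of the class I fragments lay in loci that ran past the element and were under 90% inside it, against 62.5 to 72.5% in long-term KO, and with only loci at least 90% inside the log2 fold change was -0.05 (adjusted p = 0.788). The aligner kept 1 position for a read with several, and the value of a single element is uncertain.

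Elements were then followed one by one. The 12 class I elements with a locus in all 6 libraries, a choice made after the values were seen, had 52.3, 52.0 and 54.7 element FPKM together at 4OHT day 5 and 7.65, 7.46 and 7.57 in the long-term libraries, a log2 fold change of -2.79 (adjusted p = 6.32e-09). All 12 were lower in long-term KO without overlap. They differed in how far they fell. The 9 elements without a proline tRNA primer-binding site (PBS-pro, to which the silencing factor Zfp809 binds) were 8.05 to 16.5 times lower, with a median of 9.70, and the 3 elements with PBS-pro 1.31 to 3.15 times lower, with a median of 1.41. Since a locus was required in every long-term library, elements that fell furthest are left out, and one with PBS-pro goes against this order: #48 had 0.571, 0.533 and 0.537 element FPKM at day 5 and 0, 0.0509 and 0.0503 in long-term KO, or 16.2 times less. The difference between these groups of elements was not tested, since elements of one class are not replicates.

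The most abundant element at 4OHT day 5 was #67, on chromosome 19 from 4061378 to 4066369 (mm9, minus strand), which has no PBS-pro. It had an element FPKM of 149.7, 150.8 and 149.6 at day 5, 11.1, 11.2 and 11.2 in long-term KO and 1.31, 1.30 and 1.24 in untreated cells. Element #66, on the same chromosome from 3083048 to 3087486 (plus strand), has PBS-pro. Its element FPKM was 28.2, 28.0 and 27.3 at day 5 and 19.99, 19.6 and 19.7 in long-term KO, so that it was under #67 at day 5 and above it in long-term KO. In the third library of 4OHT day 5, #38 had 397.5 element FPKM and no locus in the other 2, which sets that library apart in the class total. In long-term KO, #38 had 48.2, 47.4 and 47.6 element FPKM, or 31.6% of the class total.

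**Figure D4:**
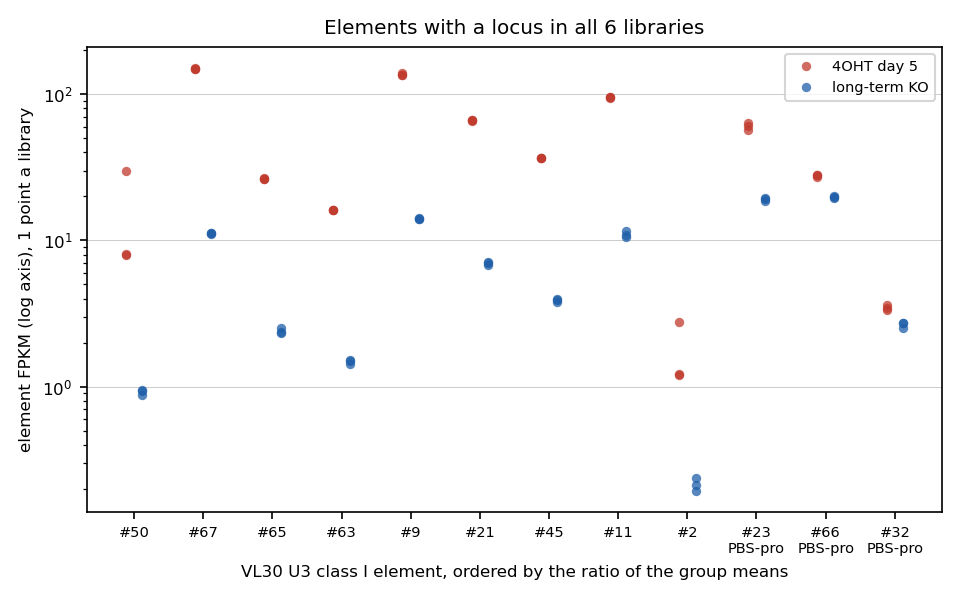
Element FPKM (log axis) of the 12 VL30 U3 class I elements with a locus in all 6 libraries, with 1 point a library, red for 4OHT day 5 and blue for long-term KO, ordered by the ratio of the group means. The 3 elements with PBS-pro at the right have ratios of 1.31 to 3.15 and the other 9 of 8.05 to 16.5, while #48, with PBS-pro and a ratio of 16.2, had no locus in 1 long-term library and is not drawn.

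A few VL30 elements emerged after the acute phase. Element #13, on chromosome 3 from 47285209 to 47289639 (plus strand, PBS-pro), had 0.0812, 0 and 0 element FPKM at 4OHT day 5 and 3.96, 4.18 and 4.13 in the long-term libraries. Element #59, on chromosome 17 from 20027739 to 20032211 (plus strand, PBS-pro), had no locus at day 5 and 1.57, 1.55 and 1.61 element FPKM in long-term KO. In untreated cells neither had a locus, and an element without a locus is not shown to be silent. Besides #59, 2 other elements had a locus in all long-term libraries and in none of day 5, #26 (0.0784, 0.0532 and 0.0830 element FPKM, PBS-pro) and #61 (2.78, 2.69 and 0.000436 element FPKM, no PBS-pro, with a locus in 2 untreated libraries).

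Other ERV families were at lower levels. VL30 U3 class III (66 elements) had 0.336, 0.362 and 0.323 element FPKM at 4OHT day 5 and 0.0758, 0.0587 and 0.0573 in the long-term libraries, a log2 fold change of -1.43 ± 0.21 (adjusted p = 0.000558), which was under 2-fold with a pseudocount of 1. These levels lie near the pseudocount of 0.1, and on the linear scale the mean at day 5 was 5.32 times that in long-term KO, against 5.40 times for class I. MMERVK10C (167 elements) had 0.0794, 0.0826 and 0.0954 at day 5 and 0.0494, 0.0502 and 0.0507 in long-term KO. The groups did not overlap, but the log2 fold change of -0.31 (adjusted p = 0.356) missed the threshold on a scale where these levels lie under the pseudocount. RLTR4 (51 elements) was the family that stood higher in long-term KO, at 0.0943, 0.0990 and 0.0925 against 0.0300, 0.0381 and 0.0357 at day 5, without overlap (log2 fold change 0.54, adjusted p = 0.107). VL30 U3 class IV overlapped between the groups (log2 fold change 0.57, adjusted p = 0.221), and class II and IAPEz were at or under 0.00230 element FPKM in every library.

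Many targets of the MAPK cascade fell after the acute phase. Of 28 genes tested, 13 were called lower and 3 higher in long-term KO than at 4OHT day 5, with a median log2 fold change of -0.68. Without any 1 library of day 5, 27 genes of the list were tested and 11 or 12 called lower. At 4OHT day 5, 0 of them were called higher and 3 lower than in untreated cells (median -0.02), and in long-term KO 3 were called higher and 15 lower than in untreated cells (median -1.08). *Etv4*, an Ets factor that ERK activity induces, had 17.2, 18.9 and 19.15 FPKM in untreated cells, 11.8, 12.9 and 13.7 FPKM at 4OHT day 5 and 1.71, 1.74 and 1.55 FPKM in long-term KO. The long-term libraries lay far under both other groups, and the log2 fold change to day 5 was -2.87 ± 0.07 (adjusted p = 3.89e-08). Its relative *Etv5* went from 7.15, 7.35 and 7.11 FPKM to 2.27, 2.23 and 2.15 FPKM (log2 fold change -1.66, adjusted p = 7.63e-08).

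Several feedback inhibitors of the cascade fell. *Dusp6*, a phosphatase of ERK, had 28.6, 27.8 and 28.9 FPKM in untreated cells, 28.9, 29.9 and 30.0 FPKM at 4OHT day 5 and 9.73, 9.60 and 9.06 FPKM in long-term KO. Untreated and day 5 libraries were at one level and the long-term libraries far under it, at a log2 fold change of -1.63 ± 0.04 (adjusted p = 2.54e-08). The phosphatase *Dusp4* (-1.82), the Sprouty genes *Spry4* (-1.85), *Spry1* (-1.73) and *Spry2* (-1.02) and *Spred2* (-1.08) fell too, of which *Spry2* was under 2-fold without the second library of day 5 (-0.85) or the first long-term library (-0.99). *Dusp4* reached 1 FPKM at 4OHT day 5 only, so the filter set the direction of its change. *Myc* went from 21.1, 24.0 and 22.6 FPKM to 4.75, 4.98 and 5.201 FPKM (-2.16, adjusted p = 1.23e-07) and *Ccnd1*, the cyclin D1 gene, from 47.5, 47.8 and 46.0 FPKM to 14.3, 13.8 and 14.7 FPKM (-1.72, adjusted p = 3.13e-08). *Fosl1*, an AP-1 subunit, was at 3.59, 3.10 and 3.65 FPKM at day 5 and listed at 0, 0.871 and 0 FPKM in long-term KO. Some genes of the list moved the opposite way: the AP-1 gene *Fos* had 29.8, 29.6 and 28.0 FPKM at 4OHT day 5 and 92.0, 87.6 and 113 FPKM in long-term KO (1.73, adjusted p = 1.52e-06), and the AP-1 gene *Fosb* (1.83) and *Egr3* (1.17), a zinc finger factor, rose. The Ets genes *Ets1* (-0.04), *Ets2* (-0.10), *Elk3* (-0.05) and *Elk4* (0.13) were not called.

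Of 22 cytokine and inflammatory genes tested, 8 were called lower in long-term KO, *Cxcl10* and *Ccl5* among them, and 2 higher (median -0.58). *Il1rl1*, the receptor of interleukin-33, fell the most among the others. It had 209.9, 300.4 and 223 FPKM at 4OHT day 5, 14.3, 15.0 and 12.3 FPKM in long-term KO and 293, 268 and 268 FPKM in untreated cells. Day 5 and untreated libraries overlapped and the long-term libraries lay far under both, at a log2 fold change of -4.12 ± 0.14 (adjusted p = 1.54e-07). *Ccl2*, a chemokine for monocytes, went from 169, 182 and 199 FPKM to 37.1, 33.4 and 34.8 FPKM (log2 fold change -2.38) and *Lif*, a cytokine of the interleukin-6 family, from 8.35, 8.25 and 8.45 FPKM to 1.74, 1.72 and 1.64 FPKM (-2.23). *Icam1*, a leukocyte adhesion molecule (-1.63), *Ptgs2*, the inducible cyclooxygenase (-1.34), and *Cxcl16* (-1.18) were the others called lower, and *Mmp9*, a gelatinase, rose (1.49). *Cxcl12*, a chemokine made by stromal cells, rose from 13.8, 15.0 and 14.2 FPKM to 34.5, 32.6 and 31.8 FPKM (log2 fold change 1.19, adjusted p = 2.87e-07), towards the 42.6, 44.8 and 43.3 FPKM of untreated cells.

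The 12 genes at the low end of the comparison, beside *Zbp1*, *Rsad2*, *Oasl1* and *Il1rl1*, had diverse roles. *Fgfbp1*, which releases fibroblast growth factors from the matrix, had 41.2, 39.5 and 35.3 FPKM in untreated cells, 30.8, 32.1 and 28.8 FPKM at 4OHT day 5 and 0.750, 0.627 and 0.690 FPKM in long-term KO. The long-term libraries stood apart from both others, and the log2 fold change of -5.28 ± 0.08 (adjusted p = 6.35e-09) was the lowest of the 12. *Wnt7b*, a Wnt ligand (-4.56), *Cpa4*, a carboxypeptidase (-4.07), and *Gjb2*, the connexin 26 gene (-4.42), showed the same order of groups, with the untreated mean the highest. In others the acute phase was the peak. *Esr1*, the gene of oestrogen receptor α, which binds 4OHT, had 3.61, 3.88 and 3.56 FPKM in untreated cells, 16.4, 17.1 and 16.7 FPKM at 4OHT day 5 and 0.603, 0.608 and 0.561 FPKM in long-term KO. It was thus highest at day 5 and ended under the untreated level, at a log2 fold change of -4.61 ± 0.05 (adjusted p = 1.96e-09). *Angptl4*, an inhibitor of lipoprotein lipase, had 26.4, 28.1 and 25.9 FPKM at day 5 and 1.09, 1.01 and 1.27 FPKM in long-term KO (-4.47), with 12.6, 11.96 and 11.9 FPKM in untreated cells. *1810011O10Rik* (-4.21) and *Sprr1a*, a gene of the cornified envelope (-4.20), followed this pattern.

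**Figure D5:**
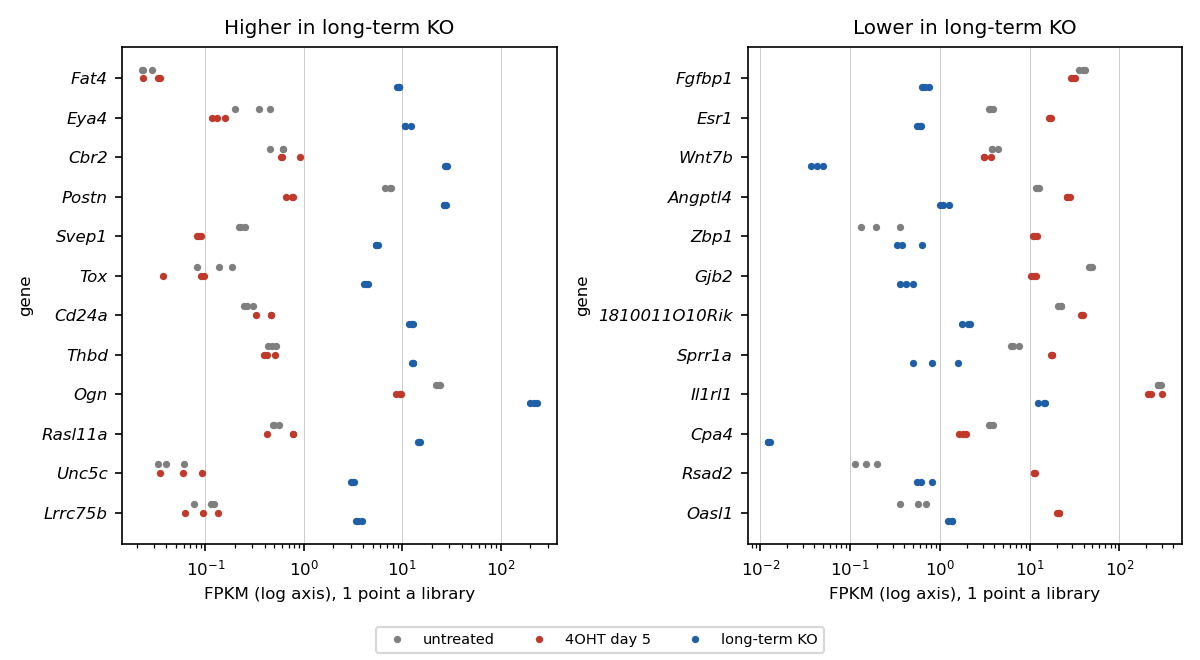
FPKM (log axis) of the 12 genes with the highest (left) and the 12 with the lowest (right) log2 fold change between long-term KO and 4OHT day 5 among genes called, above 0 in all 9 libraries and without overlap between the 2 groups, with 1 point a library. Grey is untreated, red 4OHT day 5 and blue long-term KO, and the blue points of *Fat4* at about 9 FPKM lie more than 100-fold from the red and grey ones.

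Genes of the extracellular matrix were among those that emerged after the acute phase. Of 39 collagen and matrix genes tested, 14 were called higher in long-term KO than at 4OHT day 5 and 2 lower, with a median log2 fold change of 0.79. At 4OHT day 5, 10 were called lower and 0 higher than in untreated cells (median -0.30), and in long-term KO 9 were called higher and 5 lower than in untreated cells (median 0.17). *Postn*, the matricellular protein periostin, had 7.74, 7.51 and 6.66 FPKM in untreated cells, 0.752, 0.652 and 0.771 FPKM at 4OHT day 5 and 26.9, 27.8 and 26.6 FPKM in long-term KO. The 3 groups were far apart, with day 5 the lowest and long-term KO the highest, and the log2 fold change was 5.05 ± 0.07 (adjusted p = 6.35e-09). *Ogn*, a small proteoglycan, followed the same order with 22.1, 23.4 and 24.0 FPKM, 8.55, 9.71 and 9.46 FPKM and 219.7, 198 and 234 FPKM (log2 fold change 4.54 ± 0.07, adjusted p = 6.51e-09).

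Other matrix genes were again near the untreated level. *Col3a1*, a fibrillar collagen, had 259.9, 243 and 251 FPKM in untreated cells, 90.8, 94.0 and 86.5 FPKM at 4OHT day 5 and 248, 233 and 240.2 FPKM in long-term KO. The long-term libraries overlapped the untreated ones, and the log2 fold change to day 5 was 1.41 ± 0.04 (adjusted p = 1.01e-07). *Dcn* (decorin, 1.76), *Col6a1* (1.10) and *Lox*, which crosslinks collagen (1.26), rose from a level at day 5 that lay under the untreated one. *Col12a1*, a collagen of fibril surfaces, had another pattern, with 1.75, 1.86 and 1.80 FPKM in untreated cells, 1.43, 1.41 and 1.499 FPKM at day 5 and 25.1, 25.4 and 27.1 FPKM in long-term KO. It was low in both other groups, and its log2 fold change was 4.07 ± 0.05 (adjusted p = 2.13e-09). *Col4a1*, of basement membranes (1.09), *Col16a1* (1.82) and *Col11a1* (2.15) rose as well. *Col11a1* reached 1 FPKM in the long-term libraries only, so the filter set the direction of its change from day 5. *Col8a1* (-1.49) and *Thbs2* (-1.02) were the 2 that fell, though *Thbs2* was just under 2-fold without the second long-term library (-0.99). The abundant *Col1a2* had 272, 283 and 273 FPKM at day 5 and 549, 544 and 553 FPKM in long-term KO, just under 2-fold (0.99, adjusted p = 8.18e-08), and *Fn1*, the fibronectin gene, overlapped (0.02).

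Of 25 contractile and TGF-β genes tested, 7 were called higher and 2 lower (median 0.39). *Acta2*, smooth muscle actin and a mark of myofibroblasts, had 38.1, 38.6 and 22.8 FPKM in untreated cells, 16.5, 17.9 and 17.8 FPKM at 4OHT day 5 and 119, 94.3 and 124 FPKM in long-term KO. The long-term libraries were above all others, with more spread among the untreated ones, and the log2 fold change of *Acta2* was 2.68 ± 0.21 (adjusted p = 1.21e-05). *Myl9*, a light chain of myosin, rose by 1.64 on the log2 scale and *Smad6*, an inhibitory Smad, from 0.716, 0.745 and 0.690 FPKM to 8.40, 8.11 and 8.34 FPKM (3.36, adjusted p = 5.58e-08). Among ligands and receptors, *Tgfb2* (1.24) and *Tgfb3* (1.26) rose and *Tgfbr2* fell from 61.2, 63.2 and 60.2 FPKM to 29.0, 28.4 and 29.9 FPKM (-1.08). *Ctgf*, a target of TGF-β and of Yap, fell from 18.0, 16.5 and 18.2 FPKM to 4.18, 3.47 and 3.04 FPKM (-2.28, adjusted p = 7.29e-07).

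Of the fibroblast markers, 4 of 11 tested were called higher and 0 lower (median 0.89), *Col3a1* and *Dcn* being members of the matrix list as well. *Pdgfrb*, a receptor of platelet-derived growth factor, had 5.02, 5.13 and 4.76 FPKM in untreated cells, 3.67, 4.04 and 4.10 FPKM at 4OHT day 5 and 34.9, 35.0 and 35.7 FPKM in long-term KO. The long-term libraries stood far above both other groups (log2 fold change 3.13 ± 0.05, adjusted p = 6.51e-09). *Prrx1*, a transcription factor of limb mesenchyme, rose from 25.3, 22.5 and 23.7 FPKM to 59.6, 63.6 and 61.8 FPKM (1.37). *Vim* overlapped between the groups (-0.08). Among markers of other cell types, *Epcam* (-2.32) and *Nes* (-1.22) fell, and *Map2* (1.72), *Cebpa* (1.90) and *Nanog*, at 1.18, 1.13 and 1.22 FPKM in long-term KO (1.31), rose. *Cebpa* and *Nanog* reached 1 FPKM in the long-term libraries only, so the filter set the direction of their change. *Krt8*, an epithelial keratin, had 1.97, 2.61 and 2.35 FPKM at 4OHT day 5 and was listed at 0.0416, 0 and 0.0560 FPKM in long-term KO, with 0.0557, 0.0923 and 0.0742 FPKM in untreated cells. It was tested because of its level at day 5.

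Among genes above 0 in all 9 libraries, the largest rise was that of *Fat4*, a giant cadherin that acts in planar polarity. It had 0.0285, 0.0230 and 0.0228 FPKM in untreated cells, 0.0234, 0.0331 and 0.0342 FPKM at 4OHT day 5 and 9.21, 8.86 and 9.27 FPKM in long-term KO. Untreated and day 5 libraries were near 0 alike, and the log2 fold change was 6.15 ± 0.11 (adjusted p = 8.5e-09). *Eya4*, a transcriptional coactivator of development, rose from 0.131, 0.159 and 0.117 FPKM to 10.8, 10.7 and 12.4 FPKM (5.60 ± 0.21, adjusted p = 3.02e-07) and *Cbr2*, a carbonyl reductase, from 0.905, 0.605 and 0.582 FPKM to 28.2, 28.0 and 27.3 FPKM (5.15 ± 0.16, adjusted p = 1.14e-07). Both were low in untreated cells too, at 0.451, 0.354 and 0.198 FPKM and 0.617, 0.609 and 0.457 FPKM. *Svep1*, a secreted adhesion protein (4.90), *Tox*, an HMG-box factor known from T cells (4.67), *Cd24a*, a surface glycoprotein (4.604), *Thbd*, thrombomodulin (4.59), *Rasl11a*, a small GTPase (4.33), *Unc5c*, a netrin receptor (4.32), and *Lrrc75b* (4.26) had the same pattern of low untreated and day 5 levels. Of the 12, *Postn* and *Ogn* were the exceptions, being well detected in untreated cells. The 12 were picked by their rise over day 5, so a low level at day 5 was part of the choice. At least *Fat4*, *Eya4*, *Cbr2* and *Cd24a* reached 1 FPKM in the long-term libraries only and were tested because of that group. The direction of their change from day 5 was thus set by the filter.

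Some genes of metabolic and stress pathways changed too. Of 18 genes of cholesterol synthesis and uptake tested, 5 were called higher and 1 lower (median 0.54). *Hmgcs1*, which starts the pathway, rose from 57.5, 54.2 and 52.6 FPKM to 173, 183 and 178 FPKM (log2 fold change 1.70, adjusted p = 3.42e-08). At day 5 it was close to its untreated level, at 47.6, 48.7 and 46.4 FPKM. *Idi1* (1.47), *Dhcr7* (1.29) and *Mvk* (1.16) were among the others that rose.

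Some genes of the Atf4 stress pathway were lower at each step of this experiment, which the day 6 libraries of the other experiments, given further on, do not show. Of 23 tested, 6 were called lower and 0 higher in long-term KO than at 4OHT day 5 (median -0.69), 9 were called lower and 0 higher at 4OHT day 5 than in untreated cells (median -0.90), and 18 were called lower and 0 higher in long-term KO than in untreated cells (median -1.52). *Chac1*, which degrades glutathione, had 41.5, 43.6 and 42.3 FPKM in untreated cells, 18.5, 18.7 and 18.6 FPKM at 4OHT day 5 and 4.59, 4.93 and 4.68 FPKM in long-term KO. The 3 groups did not overlap (log2 fold change -1.95 ± 0.04 to day 5, adjusted p = 1.09e-08). *Trib3*, a pseudokinase (-1.73), *Slc7a11*, the cystine transporter (-1.502), and *Fgf21*, a stress hormone (-2.73), showed the same order. *Atf3* was also called, but its 3 long-term libraries were uneven, at 9.36, 3.03 and 9.25 FPKM against 14.6, 14.2 and 15.0 FPKM at day 5 (-1.17 ± 0.39, adjusted p = 0.0274). Without the second long-term library it was -0.64 and no longer 2-fold, and without any one library of day 5 its adjusted p was 0.0597 to 0.0652.

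Of 20 p53 targets tested, 6 were called lower and 1 higher (median -0.30). *Plk2*, a polo-like kinase, fell from 128, 131 and 124 FPKM to 28.6, 29.0 and 28.4 FPKM (log2 fold change -2.15, adjusted p = 8.39e-09), *Pmaip1*, which encodes the pro-apoptotic Noxa, from 23.1, 21.9 and 21.5 FPKM to 5.85, 5.51 and 5.38 FPKM (-1.97), and *Gadd45a* from 12.3, 13.3 and 11.2 FPKM to 5.00, 5.71 and 3.10 FPKM (-1.43). *Sesn1*, a sestrin, rose (1.30). Of 28 genes of hypoxia and glycolysis tested, 2 were called higher (*Adm* and *Pfkfb4*) and 2 lower (*Hk2* and *Egln3*), or 7.14% each, which is near the share of all genes. *Pfkfb4* was under 2-fold without the first or the third library of day 5 (0.96 and 0.95) and without the third long-term library (0.999). Of 32 silencing factors tested, 0 were called higher and only *Morc2a*, a factor that acts with the HUSH complex, was called lower, from 38.7, 28.9 and 25.7 FPKM to 17.1, 14.4 and 13.1 FPKM (-1.05, adjusted p = 0.0005). Its call ended without the first library of day 5 (-0.88) or the third long-term library (-0.96).

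Among 14 imprinted genes tested, 3 were called higher and 1 lower. *Peg3*, a paternally expressed zinc finger gene, had 2.44, 2.54 and 2.55 FPKM in untreated cells, 3.60, 3.36 and 3.86 FPKM at 4OHT day 5 and 11.2, 11.3 and 11.3 FPKM in long-term KO, a log2 fold change of 1.62 ± 0.05 (adjusted p = 1.37e-07). *Mest*, also paternally expressed, fell from 38.5, 40.6 and 38.0 FPKM to 12.4, 13.9 and 12.1 FPKM (-1.60). Of 28 germline genes with a value, 26 were too low to be tested, and *Tdrd9*, of the piRNA pathway, went from 2.42, 2.68 and 2.62 FPKM at 4OHT day 5 to 0.471, 0.517 and 0.737 FPKM in long-term KO, a log2 fold change of -2.005 (adjusted p = 1.56e-05). In 2 of the 3 untreated libraries *Tdrd9* was listed at 0. It passed the filter through the libraries of day 5, where it was high. *Xist*, the RNA that coats the inactive X chromosome, was chosen after its values were seen. It was at most 0.00397 FPKM in every untreated and day 5 library and had 3.47, 3.31 and 3.67 FPKM in long-term KO (log2 fold change 5.13 ± 0.15, adjusted p = 7.63e-08). Since *Xist* passed the filter through the long-term libraries only, the direction of this change was set by the filter.

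Of the genes called, 80 were listed at 0 in at least one library, and for 36 of them a whole group of the comparison was at 0. An exact 0 can be a failed estimate, so these are named only as listed at 0, with no fold change. *Gnl3*, the nucleolar protein nucleostemin, which dividing cells use, had 62.7, 60.7 and 57.01 FPKM at 4OHT day 5 and was listed at 0 in all long-term libraries, as were *Adamts4* (15.7, 15.2 and 15.2 FPKM at day 5) and *Tfb1m* (9.12, 9.82 and 11.8 FPKM at day 5). *Kdelr3*, with 51.8, 55.0 and 42.6 FPKM in long-term KO and at a like level in untreated cells, was listed at 0 in all libraries of day 5, as were *BC003331* (20.7, 21.0 and 20.9 FPKM in long-term KO) and *Epb41l4aos* (19.3, 23.1 and 24.5 FPKM).

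Loci without a gene were compared as merged intervals of at least 300 bases. Of 587 tested, 16 (2.73%) were called higher and 230 (39.2%) lower in long-term KO. The excess of lower calls was larger in short intervals: under 1 kb, 2 of 329 were higher and 186 lower, of which 73 were listed at 0 in all long-term libraries, and at 1 kb and over, 14 of 258 were higher (5.43%) and 44 lower (17.1%), with a median log2 fold change of -0.08. This split by length, made after the values were seen, moves with the lower number of short assembled loci in the long-term libraries given above, whose part in it was not tested.

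Finally, called genes were looked up in libraries of the series that this comparison does not share. Here and in the lookups that follow, these are the 536 higher and 487 lower genes above 0 in all 9 libraries. In the inhibitor experiment, day 6 of 4OHT was compared with untreated cells, with 2 libraries each. Of the genes called higher in long-term KO over day 5, 503 were tested there, of which 2.39% were higher and 29.0% lower at day 6, with a median log2 fold change of -0.65. The 470 genes called lower had 21.9% higher and 11.1% lower (median 0.39), and all genes tested in both 3.97% and 6.22% (median -0.02). In the siRNA experiment, with control siRNA in both groups and 2 libraries each, 2 of the 482 genes called higher were higher and 27.8% lower at day 6 (median -0.75). The 463 genes called lower had 11.0% higher and 3.24% lower (median 0.56), and all genes tested in both 2.04% and 3.34% (median 0.07). Of the 41 genes at least 8-fold higher in long-term KO, 2 of 32 tested were higher and 8 lower at day 6 in the inhibitor experiment. In the siRNA experiment 0 of 33 were higher and 17 lower. Of the 28 genes at least 8-fold lower, 11 of 28 were higher and 3 lower in the former, and 5 of 23 higher and 0 lower in the latter. Of the IFN-induced list, 51 of 55 genes tested were called higher and 0 lower at day 6 in the inhibitor experiment (median 3.85), and 5 of 50 higher and 1 lower in the siRNA experiment (median 1.57). Of the Atf4 list, 5 of 23 genes were called higher and 1 lower in the former (median 0.58), and 1 of 23 higher and 0 lower in the latter (median 0.20).

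The same lookup in libraries without 4OHT was added after the values were seen. PD0325901 (PD0325091 in the labels), an inhibitor of MEK, was compared with untreated cells of the inhibitor experiment, the same libraries that the day 6 comparison used. Of the genes called higher in long-term KO, 18.3% were higher and 4.57% lower with PD0325901 (median 0.22), and of those called lower, 2.55% were higher and 26.0% lower (median -0.55), where all genes tested in both had 2.78% and 4.15% (median -0.08). Among the 41 genes that were at least 8-fold higher in long-term KO, 32 were tested with PD0325901, and 20 were called higher and 1 lower, with a median log2 fold change of 2.48. By their log2 fold changes with PD0325901, *Postn* (5.12), *Thbd* (4.86), *Cd24a* (4.08), *Rasl11a* (3.92), *Col12a1* (3.90) and *Eya4* (3.52) were among them, and *Etv4* (-6.46), *Fgfbp1* (-8.15) and *Dusp6* (-2.85) were lower in both comparisons. Of the 28 genes at least 8-fold lower in long-term KO, 1 was called higher and 10 lower with PD0325901 (median -1.09). Of the MAPK list, 14 of 28 genes were lower and 1 higher with PD0325901 (median -1.16). Not all lists went along: the IFN-induced list had a median of -0.03 with PD0325901, and of cholesterol genes 13 of 17 were lower.

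With siRNA to *Dnmt1*, the maintenance DNA methyltransferase, against control siRNA, the direction was the opposite. The control libraries were those of the day 6 comparison of the siRNA experiment, so these lookups are not independent of each other. Of the genes called higher in long-term KO, 0 of 482 were higher and 19.9% lower (median -0.63), and of those called lower, 9.72% of 463 were higher and 1.08% lower (median 0.50), where all genes tested in both had 1.11% and 2.44% (median -0.10). Of the 41 genes at least 8-fold higher in long-term KO, 0 of 33 tested were higher and 15 lower (median -2.12). Of the 28 at least 8-fold lower, 5 of 23 were higher and 0 lower. By their log2 fold changes with si*Dnmt1*, *Fat4* (-4.38), *Tox* (-4.07) and *Thbd* (-2.36) were lower, and *Wnt7b* (4.27) was higher. A fall as large as that of *Fat4* needs a clear level in the control siRNA libraries, whereas *Fat4* was near 0 in the untreated libraries of total RNA. Its starting level thus differed between the experiments, and the reason was not tested. *Xist* was higher with si*Dnmt1* (3.71), as it was in long-term KO. The inhibitor and siRNA libraries were made without the removal of rRNA that the total RNA libraries had, and their values were not fitted together with those of the total RNA.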

How the data were processed

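Total RNA of *Setdb1* cKO iMEFs was sequenced after removal of rRNA, with 3 libraries each of untreated cells, 4OHT day 5 and long-term KO, grouped by their labels. Per the notes of the authors, TopHat2 (2.0.12) placed the reads on mm9, with 1 position kept for a read with several, and Cufflinks assembled loci, whose FPKM was deposited. The tables of total RNA name no genes, so a locus was given the gene of the named tables when it covered at least 95% of that gene and of no other, apart from genes nested within it. The part shared by locus and gene also had to be at least 0.5 of their joint span. ERV positions and PBS-pro marks come from the element list of the study. Depth was 37.3 to 42.6 M fragments a library, which limits the precision of low values. Genes with at least 1 FPKM in at least 3 of the 9 libraries were fitted as log2(FPKM + 0.1) with limma (3.58.1, R 4.3.3), with a trend in the variance and Benjamini-Hochberg adjustment, after tests on simulated data. The siRNA and inhibitor libraries were fitted in the same way, each experiment on its own, but with at least 1 FPKM in at least 2 libraries. Named were *Setdb1* and the genes the study's text names, the 12 highest and 12 lowest genes called without a 0 or overlap, up to 6 called members and the defining members of each list (some are not reported here), and the 3 highest and 3 lowest genes with a group at 0. The gene lists and this rule were chosen with earlier results of these data known. Alternatives were other pseudocounts, filters, fold limits, scalings and locus rules, a replicate block, and leaving out each library. Alternatives added after the data were seen were the elements with a locus in all 6 libraries and the lookups with PD0325901 and si*Dnmt1*. The 2 deposited tables of the authors' own comparisons, which hold their fold changes and p-values, were not used.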

Additional observations from a re-analysis of the deposited data

How the results depend on the processing

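The counts of genes called kept within 1.5 times of 577 higher and 526 lower under most alternatives. A filter of at least 5 FPKM left 6596 genes tested, of which 353 (5.35%) were higher and 324 (4.91%) lower, and genes whose locus had the same bounds in all libraries left 3243, of which 198 (6.11%) were higher and 206 (6.35%) lower. Those bounds left 31 IFN-induced genes, 19 of them lower, 7 MAPK targets, 2 of them lower, and 13 matrix genes, 4 of them higher. A pseudocount of 1, which shrinks the change of low genes, gave 393 higher and 349 lower. Without a limit on the fold change 3115 genes were higher and 2651 lower, and 27 matrix genes higher. Scaling moved the balance of the calls: 518 genes were higher and 558 lower with median-ratio scaling, and 533 and 583 with quantile normalization. Leaving out each library in turn gave 437 to 588 higher and 463 to 533 lower genes, 25 to 34 IFN-induced genes lower of 49 to 56 tested, and -2.48 to -2.12 for the log2 fold change of VL30 U3 class I RNA. Genes that reach 1 FPKM in 1 group only pass the filter through its 3 libraries and drop out without 1 of them. Without a long-term library, 8469 to 8471 genes were tested and 437 to 455 called higher. That value was -0.050 (limma, adjusted p = 0.788) when loci had to lie at least 90% within elements, and the cause was not tested. The replicate numbers do not pair the libraries, since same-numbered libraries correlated from -0.0546 to 0.122 in their deviations from the group means. With a replicate block, 569 genes were higher and 521 lower, 32 IFN-induced genes were lower and VL30 U3 class I stood at -2.36. Of 142 named genes called, 112 stayed called in the same direction under every alternative that tested them. Without any 1 library of day 5, 131 of the 142 were tested, and without any 1 long-term library 126. Of 2207 pairs of a gene and an alternative, 56 lost the call, 26 of them with a pseudocount of 1, and 0 changed direction. With that pseudocount the named genes *Cebpa*, *Col11a1*, *Cxcl16*, *Dusp4*, *Egln3*, *Egr3*, *Hk2*, *Icam1*, *Mmp9*, *Nanog*, *Pfkfb4*, *Slc7a11*, *Slfn5*, *Spred2*, *Spry2*, *Tgfb2* and *Thbs2*, most of them low, were under 2-fold. At this depth and with 3 libraries a group, genes under 1 FPKM were not assessed.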
